A study of Mus musculus with 24 samples.

Results

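The samples described are the untreated thoracic aortas of a mouse drug-feeding study, 8 of its 24 RNA-seq libraries, taken as the columns of the deposited count table whose titles mark them as controls. The other 16 libraries came from mice given celecoxib or rofecoxib and are not described. Each control library is from an adult male wild-type C57BL/6 mouse of 10 to 12 weeks that ate regular chow without a drug for 3 weeks and was housed at 12 h light and 12 h dark. Aortas were taken at zeitgeber time 11, in hours after lights on, which falls near the end of the light phase. All 8 controls share these conditions, so no contrast between treatments is made, and the results are levels of genes within the aorta and differences between the 8 libraries. The design text calls the libraries biological replicates, and no label names the animal behind one. The labels do not say whether the fat, nerves or blood around the vessel wall were removed.

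The thoracic aorta is an elastic artery. Its middle layer, the media, is built of smooth muscle cells between sheets of elastin, and these cells contract through actin and smooth muscle myosin when calcium enters the cell or leaves its stores. A single layer of endothelium lines the lumen and releases nitric oxide and prostacyclin, which relax the muscle, while the outer layer, the adventitia, holds fibroblasts, collagen, small vessels, nerves and resident macrophages. The fat around the thoracic aorta of the mouse resembles brown fat, the tissue that burns lipid to make heat.

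Levels between genes are given as TPM, a count per kilobase of exon scaled to a sum of 1000000, as mean ± SD over 8 libraries. The spread of a gene between libraries is given as the coefficient of variation (CV), the SD divided by the mean. Library totals were 21656610 to 21672499 counts, a range of 0.0734%, and no source used here names the step that brought them so close. Pearson's r between libraries, across genes on log2 counts scaled to a common total, was 0.964 to 0.993. Control 6 stood apart, with a score of 45.1 on the first principal component against -24.3 to 5.43 in the others. This component held 47.1% of the variance. Control 6 was the highest of the 8 libraries for 3432 of the 13339 genes tested for spread (25.7%). Controls 1 to 4 also differed from controls 5 to 8, a split that was seen in the values and that no label gives. For 1203 genes (9.02%) controls 1 to 4 all lay above controls 5 to 8, and for 1069 (8.01%) all lay below. Library construction took 3 days and no source used here gives the day of each library.

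The label of the tissue was checked on its markers first. Acta2, which encodes the actin of vascular smooth muscle, had the highest level of all genes at 28405 ± 3245 TPM (ENSMUSG00000035783, mm9 chromosome 19 from 34315378 to 34330028). Controls 1 to 8 had 25009.5, 26252, 28199, 35028, 28613, 25392, 28221 and 30525 TPM, with control 4 highest. Tagln, which encodes transgelin, an actin-binding protein of smooth muscle, ranked after Acta2 and Myl9 at 14638 ± 1265 TPM (ENSMUSG00000032085, mm9 chromosome 9 from 45737509 to 45744343), and its libraries lay between 12593 and 16299.9 TPM. Myh11, the smooth muscle myosin heavy chain, was at 5242 ± 651 TPM (ENSMUSG00000018830, mm9 chromosome 16 from 14194418 to 14291703), with 4068 TPM in control 6 and 4909 to 6358 TPM in the others. All 20 genes of the smooth muscle list had a mean of at least 1 TPM, against 55.7% of all 24179 genes with a length. They summed to 81319.9 ± 7038 TPM, which is 8.13% of the total. The list also holds Myl9 at 15327 ± 1376 TPM, the light chain whose phosphorylation starts contraction, Csrp1 at 4045 ± 288, Tpm2, a tropomyosin, at 3278 ± 233, Cnn1, calponin, at 2231 ± 162 and Smtn, smoothelin, at 1759.8 ± 141 TPM. The 3 markers and Cnn1 and Myl9 each had a CV of at most 12.4% over the 8 libraries. Desmin (Des) was lower and less even, at 251 ± 80.2 TPM with a CV of 31.9%.

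Serum response factor is the known activator of many contractile genes, binds a motif called the CArG box and works with its partner myocardin. Srf, the gene of the first, was at 174 ± 10.1 TPM and Myocd, that of the second, at 62.3 ± 18.6 TPM, with a CV of 5.81% for Srf and 29.9% for Myocd. RefSeq promoters of GRCm38.p6, a later build than the mm9 of the counts, were searched for an exact CArG box on both strands in the 300 bases from 250 before to 50 after a start site. A box was found in 535 of 32851 promoters (1.63%), or 488 of 27025 genes (1.81%). Among genes of the smooth muscle list, 15 had such a promoter and 2 of them, Myl9 and Rergl, held a box. Among the 40 highest genes by TPM, 28 had one and 3 held a box, Myl9, Fhl1, a LIM-domain protein of muscle, and Myl6, the essential myosin light chain. The genes of both sets outside these 15 and 28, Tagln and Myh11 among them, had no promoter of 300 bases in the sequences used. Whether those genes hold a box was not examined. The promoters of these 3 genes and of Srf itself are shown because they are the abundant genes, or the gene of the factor, in which the motif was found. Each line gives the 250 bases before the start site, 5′ to 3′ on the strand of the gene, and capitals mark the box.
Myl9, chr2:156775214-156775463, plus strand: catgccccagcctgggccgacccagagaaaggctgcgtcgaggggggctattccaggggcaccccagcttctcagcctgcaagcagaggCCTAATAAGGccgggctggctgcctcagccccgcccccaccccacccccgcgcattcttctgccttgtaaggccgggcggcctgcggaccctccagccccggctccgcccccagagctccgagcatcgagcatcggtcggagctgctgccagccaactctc
Fhl1, chrX:56779433-56779682, plus strand: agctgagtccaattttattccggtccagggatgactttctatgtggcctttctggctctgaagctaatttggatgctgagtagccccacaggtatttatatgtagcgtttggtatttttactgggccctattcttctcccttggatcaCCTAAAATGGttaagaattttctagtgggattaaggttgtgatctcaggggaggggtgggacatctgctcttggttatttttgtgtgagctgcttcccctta
Myl6, chr10:128493010-128493259, minus strand: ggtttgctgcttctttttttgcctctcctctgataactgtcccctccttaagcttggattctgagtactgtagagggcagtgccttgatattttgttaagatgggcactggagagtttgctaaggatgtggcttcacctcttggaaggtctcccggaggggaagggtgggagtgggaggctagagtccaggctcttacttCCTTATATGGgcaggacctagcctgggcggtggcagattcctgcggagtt
Srf, chr17:46556163-46556412, minus strand: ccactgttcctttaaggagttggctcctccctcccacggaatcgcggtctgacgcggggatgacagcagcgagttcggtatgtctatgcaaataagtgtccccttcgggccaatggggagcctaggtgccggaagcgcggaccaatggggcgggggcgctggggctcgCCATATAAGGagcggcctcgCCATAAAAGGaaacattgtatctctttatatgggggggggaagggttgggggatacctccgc
The box began 161 bases before the start site in Myl9, 102 in Fhl1 and 50 in Myl6, and Srf held 2, at 82 and 62 bases before its start. A match describes the sequence and shows no binding. The levels beside these promoters were 2708 ± 200.2 TPM for Fhl1 and 2588 ± 173 TPM for Myl6, with CVs of 7.39% and 6.67%.

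Levels were concentrated in few genes. Of the 24179 genes with a length, 13467 (55.7%) had a mean of at least 1 TPM, 9156 had at least 10 and 108 at least 1000. Among protein-coding genes 12543 of 18220 (68.8%) reached 1 TPM. Acta2 alone held 2.84% of all TPM, the 10 highest genes 11.2%, the 40 highest 20.1% and the 1000 highest 61.1%. Beside smooth muscle genes, the 40 highest held secreted proteins of the matrix. Mgp, the matrix Gla protein that inhibits calcification of arteries, was at 13033 ± 1889 TPM, and its libraries had 12243, 11580.3, 11609.7, 12167, 16521, 11658, 15356 and 13125 TPM, with controls 5 and 7 highest. Igfbp7, a secreted binding protein for growth factors, was at 8104 ± 983 TPM, Sparc, a collagen-binding glycoprotein, at 5556 ± 610.0 TPM, and Bgn, the proteoglycan biglycan, at 4901 ± 482 TPM. With the longest transcript as the length in place of all exons, Bgn was at 8445 TPM. Sost, which encodes sclerostin, an inhibitor of Wnt signalling best known from bone, was the last of the 40 at 1821 ± 213 TPM, between 1498 and 2178 TPM in all 8 libraries. Cytoskeletal and general genes in the 40 included Tmsb4x, which binds monomeric actin, at 7636 ± 431 TPM, Flna, filamin A, at 5841 ± 599, Vim, vimentin, at 5770.2 ± 629 and Eef1a1, the translation elongation factor, at 7143 ± 423 TPM. Cfd, the adipsin of fat cells, was also among them at 2563 ± 1327 TPM, with the largest CV of the 40 (51.8%), from 779 in control 4 to 4841 TPM in control 6.

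**Figure D1:**
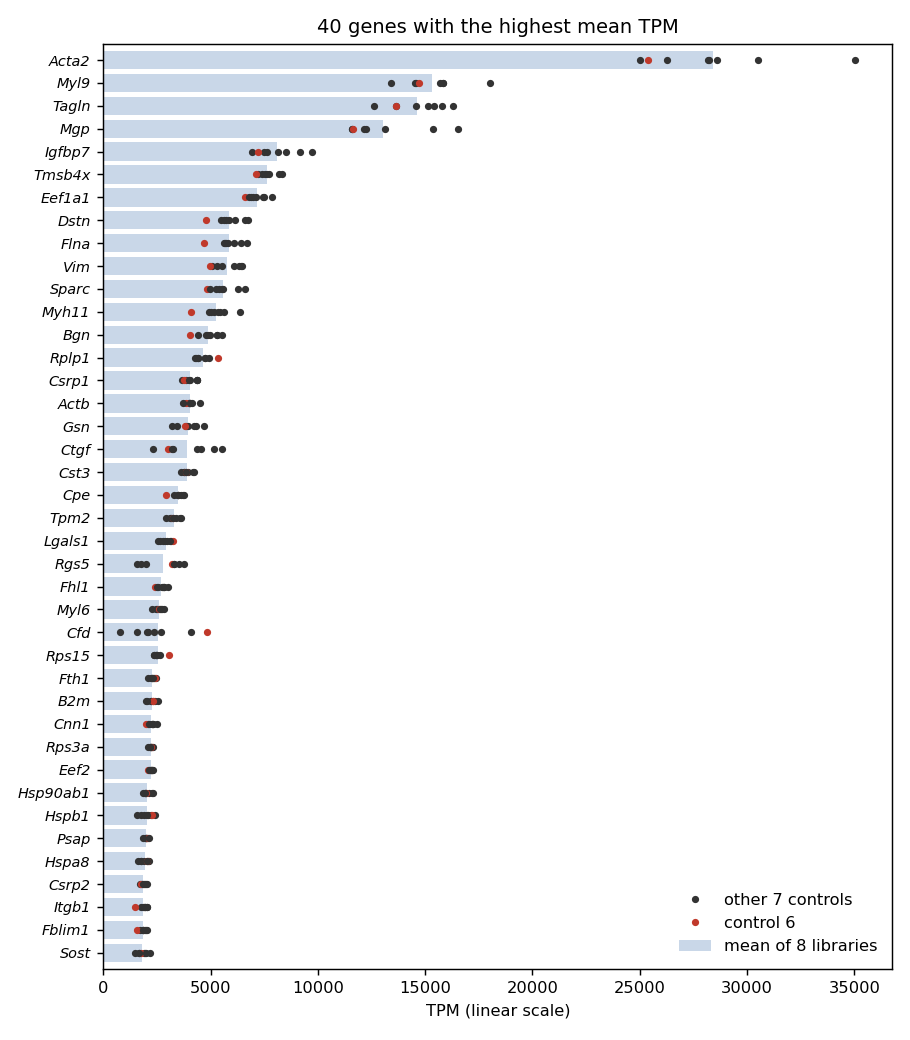
TPM (linear scale) of the 40 genes with the highest mean, with bars for the mean of 8 libraries and points for single libraries (red for control 6). Acta2 lies far above the rest, and Cfd and Rgs5 have points spread over a wide range for their level.

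Marker lists gave the other cell types, on the scale of summed TPM. In bulk tissue, fewer cells of a type and less RNA per cell cannot be told apart, and the sums of lists with different genes do not give cell numbers. The 16 fibroblast and adventitia markers summed to 9391 ± 1199 TPM, led by collagen genes and by Dcn, decorin, at 1097 ± 191 TPM, and 11 of the 16 were lowest in control 6, beside 24.3% of all genes tested. Pdgfra, the receptor that marks fibroblasts, was at 35.6 ± 5.19 TPM. The 18 endothelial markers summed to 939 ± 84.7 TPM, and all 18 reached 1 TPM. They included Pecam1, the adhesion molecule CD31, at 184 ± 29.1 TPM, Cdh5, the cadherin of endothelial junctions, at 57.3 ± 10.8 and Vwf, von Willebrand factor, at 38.8 ± 9.58 TPM. Pecam1 had 120.2 TPM in control 6 and 175 to 213 TPM in the others, while the endothelial sum of control 6 lay within the range of the rest. The 16 macrophage and monocyte markers summed to 869 ± 164 TPM, led by Lyz2, a lysozyme, at 339 ± 72.3 and C1qa, of complement, at 131 ± 25.7 TPM. The 7 pericyte genes summed to 3678 ± 841 TPM, most of it from Rgs5, which smooth muscle also expresses, and the 6 lymphatic genes with a length to 67.0 ± 16.4 TPM. Mrc1, a receptor of resident macrophages, was at 16.3 ± 3.52 TPM.

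None of the 9 T and NK cell genes and none of the 7 thymocyte genes reached 1 TPM. Among 7 genes of lung epithelium 1 reached 1 TPM, Ager at 1.70 ± 0.435 TPM, while Sftpc, the surfactant gene that defines alveolar cells, was at 0.0215 ± 0.0609 TPM. Ighm, the heavy chain of IgM, was the highest of the B cell list at 25.3 ± 7.25 TPM, and Ms4a1, which encodes CD20, was at 0.227 ± 0.194 TPM. Mast cell enzymes were low but present, with Mcpt4 at 8.40 ± 3.94 and Cma1, the mast cell chymase, at 5.07 ± 2.94 TPM. Skeletal muscle genes were low apart from Casq1, a calcium-binding protein of the sarcoplasmic reticulum, at 218 ± 46.4 TPM. The next of that list was Mybpc2 at 6.88 ± 1.804 TPM. The sex-linked genes showed the pattern of male mice, with Eif2s3y at 83.0 ± 7.44 TPM and Xist, the RNA of the inactive X chromosome, at 0.0774 ± 0.0392 TPM.

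**Figure D2:**
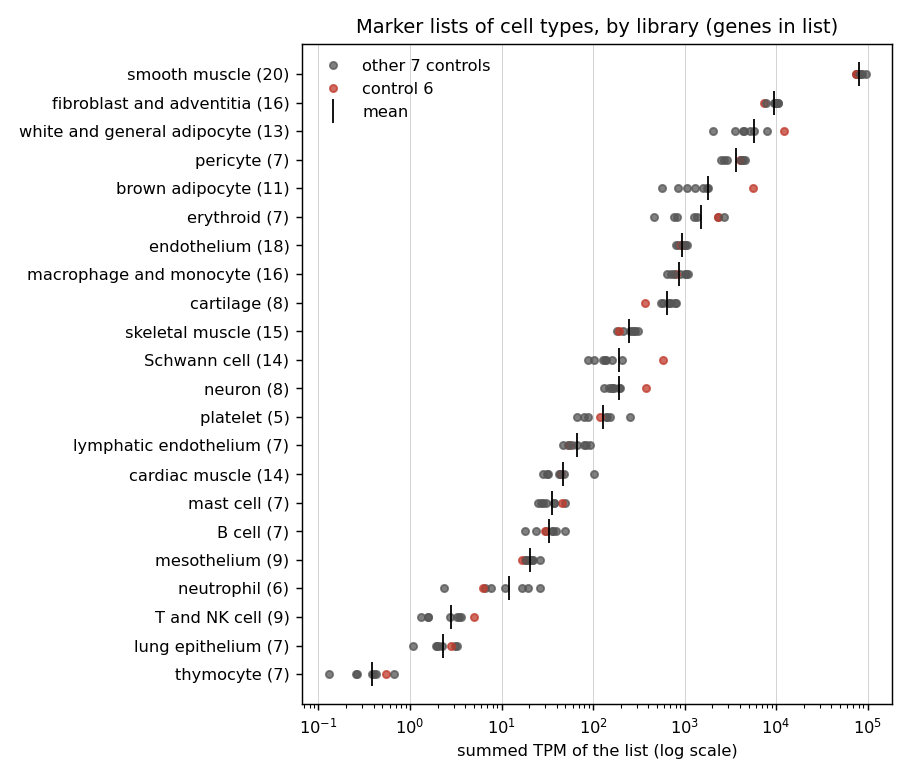
Summed TPM (log scale) of 22 marker lists of cell types, with 1 point per library (red for control 6) and a line for the mean. The smooth muscle sum is the highest, and control 6 lies apart from the other 7 controls for brown adipocyte, Schwann cell and neuron genes.

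Of 81 receptors for vasoactive signals, 53 reached 1 TPM. The highest levels were those of the natriuretic peptide receptors, Npr1 at 374 ± 21.8 and Npr2 at 186 ± 10.01 TPM, which make cyclic GMP when their peptide binds. Npr1 varied little, from 338 to 411 TPM. Npy1r, a receptor for neuropeptide Y from sympathetic nerves, was at 185 ± 31.4 TPM and Ramp1, a partner of the receptor for CGRP, at 180.2 ± 21.8 TPM, and the ranges of these 2 genes and Npr2 overlapped. P2rx1, a cation channel opened by ATP, followed at 157 ± 38.0 TPM, F2r, the thrombin receptor, at 103 ± 10.8, Adra1d, the alpha-1D adrenergic receptor, at 92.7 ± 18.2 and Tbxa2r, the thromboxane receptor, at 80.5 ± 5.28 TPM. Other receptors were named after their levels were seen. The angiotensin receptor genes Agtr1b and Agtr1a were at 10.3 ± 4.74 and 3.39 ± 1.65 TPM, the endothelin receptor genes Ednra and Ednrb at 14.9 ± 1.82 and 8.64 ± 2.59 TPM, and the prostacyclin receptor gene Ptgir at 8.71 ± 1.24 TPM. Among the adrenergic receptors Adra1d exceeded Adra1a at 3.63 ± 2.28 and Adra1b at 3.72 ± 0.614 TPM in every library. Ramp2, which pairs with the adrenomedullin receptor, was at 57.4 ± 8.81 TPM, or 96.6 with the longest transcript as length, and its exons overlap those of Vps25, so reads there cannot be told apart.

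Potassium channels set the resting voltage of smooth muscle, and 28 of 84 such genes with a length reached 1 TPM. Kcnmb1, the beta subunit of the large calcium-activated channel, was the highest at 255 ± 27.6 TPM, while Kcnma1, the pore of the same channel and named after its level was seen, was at 6.27 ± 0.988 TPM. The ATP-sensitive channel was represented by Abcc9, its sulfonylurea receptor, at 175 ± 26.4 and Kcnj8, its pore, at 89.2 ± 5.91 TPM. Kcnh2, of the ether-a-go-go family, was at 135 ± 16.6 TPM. In control 6 Kcnmb1 was lowest, at 204 TPM against 238 to 294 TPM in the others. Kcnk3, a two-pore channel that fat cells also express, was at 29.5 ± 24.2 TPM, with a CV of 82.0% and 43.6% without control 6.

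Of 26 genes of voltage-gated calcium channels, 13 reached 1 TPM. Cacna1c, the pore of the L-type channel that drives contraction, was at 14.8 ± 1.31 TPM, below the accessory subunits Cacng7 at 64.8 ± 5.38, Cacnb3 at 56.3 ± 6.66 and Cacna2d1 at 49.0 ± 5.33 TPM. The calcium store was represented by Atp2a2, the SERCA2 pump, at 601 ± 93.5 TPM, Itpr1, the inositol trisphosphate receptor, at 62.3 ± 6.27 and Calr, calreticulin, at 855 ± 67.6 TPM. Stim1, the sensor of an empty store, was at 36.6 ± 1.19 TPM with a CV of 3.27%, or 65.5 TPM with the longest transcript as length. Its partner channel was represented by Orai3 at 98.2 ± 8.32 and Orai1 at 23.9 ± 2.90 TPM. Among TRP and mechanosensitive channels, Pkd1 and Pkd2, the polycystin genes, led at 257 ± 25.6 and 73.0 ± 7.32 TPM, ahead of Trpm7 at 42.2 ± 4.06 TPM. Fam38a, the older name of the stretch channel gene Piezo1, was at 18.9 ± 2.34 TPM, and its exons overlap those of Ctu2, so reads of the 2 genes cannot be told apart there. Ano1, the calcium-activated chloride channel, was the first of its list at 133 ± 20.2 TPM, and Lrrc8a, of the volume-regulated channel, was at 121 ± 15.6 TPM. Their ranges overlapped, and Ano1 was the higher in 7 of 8 libraries. Clcn4-2, a chloride and proton exchanger, was steady at 52.8 ± 1.75 TPM, with a CV of 3.31% over 8 libraries and 1.24% without control 6. Gap junction genes were led by Gja1, connexin 43, at 84.4 ± 13.6 TPM (168 with the longest transcript as length) and Gja4, connexin 37, at 79.5 ± 25.6 TPM.

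Enzymes that link these signals to contraction were present at high levels. Of 33 contraction control genes, 30 reached 1 TPM, led by Rgs5, which shortens G protein signals, at 2805 ± 869 TPM. Mylk, the myosin light chain kinase, was at 681 ± 68.6 TPM, Ppp1r14a, the inhibitor CPI-17 of myosin phosphatase, at 416 ± 34.4 and Ppp1r12b, a subunit of that phosphatase, at 385 ± 34.9 TPM. Rhoa, the GTPase that acts on the same phosphatase, was steady at 225 ± 8.13 TPM with a CV of 3.62%. Adcy5, an adenylyl cyclase that makes cyclic AMP, led the 46 cyclic nucleotide genes at 750.0 ± 51.7 TPM, 750.0 against 202 TPM for Adcy6, the next cyclase. The 2 subunits of the nitric oxide receptor, Gucy1b3 and Gucy1a3, were at 252 ± 36.4 and 129.6 ± 12.9 TPM, and Pde5a, which breaks down cyclic GMP, was at 102 ± 10.7 TPM. The smallest level of Gucy1b3, 189.7 TPM, lay above the largest of Gucy1a3, 153 TPM.

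Nos3, the nitric oxide synthase of endothelium, was at 36.8 ± 7.02 TPM and was named after its level was seen. Sod3, the extracellular superoxide dismutase that protects nitric oxide, led the nitric oxide and redox list at 1449 ± 129 TPM, with a CV of 8.92%. Nox4, an NADPH oxidase, was at 257 ± 30.2 TPM, or 418 with the longest transcript as length. Ptgis, prostacyclin synthase, was at 1473 ± 115 TPM, between 1274 and 1623, and its libraries overlapped those of Sod3. The cyclooxygenase genes were far lower, Ptgs1 at 18.3 ± 2.53 TPM and Ptgs2 at 31.2 ± 14.3 TPM. Ptgs2, the inducible enzyme, had 39.999, 53.2, 42.7, 36.4, 22.6, 16.7, 11.2 and 26.4 TPM in controls 1 to 8 and was higher in each of controls 1 to 4 than in each of controls 5 to 8. Ptgs1, the constitutive enzyme, ranged from 13.6 to 21.6 TPM. Ace, the angiotensin-converting enzyme, was at 293 ± 50.7 TPM, and Ece1 and Edn1, the converting enzyme and the peptide of the endothelin system, were at 92.2 ± 9.42 and 22.8 ± 4.23 TPM.

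Matrix genes were abundant. Of 44 collagen genes 32 reached 1 TPM, and they summed to 10808 ± 1201 TPM. The 4 highest, Col3a1 at 1557 ± 254, Col18a1 at 1453 ± 159, Col1a1 at 1418 ± 286 and Col1a2 at 1399 ± 222 TPM, differed by less than their spread, and Col1a2 was at 2448 TPM with the longest transcript as length. Col3a1 and the Col1a genes make the fibrillar collagens of the adventitia, and Col18a1 makes a collagen of basement membranes. Col4a1 and Col4a2, which form the main network of basement membranes, were at 716 ± 58.3 and 743 ± 78.7 TPM, and Col4a2 was the higher in each of the 8 libraries. Of the collagen genes tested, 18 of 32 were lowest in control 6, beside 24.3% of all genes tested. Eln, elastin, was at 1045 ± 229.9 TPM (1654 with the longest transcript as length), from 722 in control 1 to 1505 in control 2. Mfap4, of the elastic fibre, was the highest of its list at 1763 ± 205 TPM. Lox and Loxl1, the enzymes that crosslink elastin and collagen, were at 134 ± 16.6 and 475 ± 45.3 TPM. Integrins, which tie cells to the matrix, were led by Itgb1 at 1864 ± 188 and Itga8, which pairs with it, at 1562 ± 277 TPM.

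Among 81 transcription factors of vessels, Osr1 was highest at 265 ± 28.5 TPM, followed by Klf6 at 256 ± 75.9, Mef2d at 178 ± 9.68 and Heyl, a target of Notch signalling, at 176 ± 21.9 TPM. The nuclear receptors were led by Nr1d1 and Nr1d2, the REV-ERB repressors of the clock, at 270.2 ± 57.1 and 193 ± 28.4 TPM. Thra, a thyroid hormone receptor, was at 167 ± 12.2 TPM and Nr1h2, an oxysterol receptor, at 157 ± 9.05 TPM. Among 63 growth factor and Notch receptors, 60 reached 1 TPM, with Axl at 554 ± 45.1, Pdgfrb at 279 ± 26.2 and Lrp1 at 265 ± 30.3 TPM first. Of 19 circadian clock genes 18 reached 1 TPM. Dbp, Per2 and Tef, which the clock activators drive, were at 322 ± 47.0, 289.9 ± 32.7 and 274 ± 17.2 TPM. The activator gene Arntl, also called Bmal1, was at 0.734 ± 0.466 TPM, with 1.84 in control 6 and 0.341 to 0.782 TPM in the others. Clock, its partner, was at 11.5 ± 0.727 TPM with a CV of 6.33%, and Npas2, which can take the place of Clock, was at 4.30 ± 0.775 TPM. Nfil3, a repressor that opposes Dbp, had a CV of 45.1%. The exons of Dbp overlap those of Sphk2, so its level is less certain. Only samples of 1 time were taken, so no rhythm was measured.

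Of 339 olfactory receptor genes, 271 were at 0 in all 8 libraries, and of the 270 with a length 5 reached 1 TPM. Olfr1033 was at 67.5 ± 16.7 TPM, Olfr224 at 21.3 ± 4.53, Olfr558 at 4.36 ± 1.96, Olfr78 at 2.11 ± 0.867 and Olfr330 at 1.77 ± 0.601 TPM. The first 2 did not overlap, since Olfr1033 was at 44.4 TPM or more and Olfr224 at 27.8 TPM or less. Genes of the cell cycle were low, with Mki67, a marker of dividing cells, at 0.985 ± 0.222 TPM and Top2a, a topoisomerase of dividing cells, at 1.16 ± 0.242 TPM. The highest of that list, Pcna and Mcm6, which copy DNA, were at 79.7 ± 3.30 and 78.3 ± 9.01 TPM. Long noncoding RNAs were led by Neat1 at 346 ± 25.6 and Malat1 at 331 ± 61.7 TPM, both of the nucleus, and imprinted genes by Meg3 at 51.0 ± 3.28 TPM. Heat shock genes were among the abundant ones, with Hsp90ab1 at 2053 ± 159, Hspb1 at 2035 ± 283 and Hspa8 at 1920.1 ± 178 TPM.

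The spread between the 8 libraries was tested against the trend of all genes at a like level. In edgeR's quasi-likelihood fit, the common biological coefficient of variation, the relative SD beyond counting error, was 0.160, and it was 0.118 without control 6. Without any 1 of the other controls it was 0.158 to 0.169. No gene of 13339 was called more variable than the trend (0%) and none less variable (0%), with a smallest Benjamini-Hochberg adjusted p of 0.438 and 0.676. At an unadjusted p under 0.05 there were 838 more variable (6.28%) and 570 less variable genes (4.27%). limma on log2 CPM also called 0 in both directions. DESeq2 marked 210 genes as dispersion outliers, of which 173 were highest in control 6, beside 25.7% of all genes tested. Without a filter on low counts edgeR called 239 genes more variable, 209 of them among the 13339, and 170 of those 209 were highest in control 6. Against counting error alone, a chi-square test found a larger spread in 10389 genes (77.9%). The genes below are therefore described by their CV and values, with the unadjusted edgeR p kept out of any call.

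At a mean of at least 10 TPM, the median CV of 9155 genes was 8.78%, or 7.59% without control 6. It was 6.24% within controls 1 to 4, 7.52% within controls 5 to 8 and 5.64% within controls 5, 7 and 8. The median of a CV tends to be smaller when fewer libraries enter it. The part of that in these differences was not tested. A CV over 50% was found in 163 of the 9155 genes, and 147 of the 163 were highest in control 6. Without control 6 there were 34. A CV under 5% was found in 1232. The 17 genes with a CV over 100% included Scd1, a desaturase of lipid synthesis, at 135% and Mbp, a myelin protein, at 125%. Without control 6 there were 2, Lars2 among them. Among the 19 smooth muscle genes tested the widest spread was in Des at 31.9%, and Acta2, the most abundant, was at 11.4%. The other list member, Rergl, a small GTPase, did not pass the filter on low counts and had a CV of 100.2% around 5.34 TPM.

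**Figure D3:**
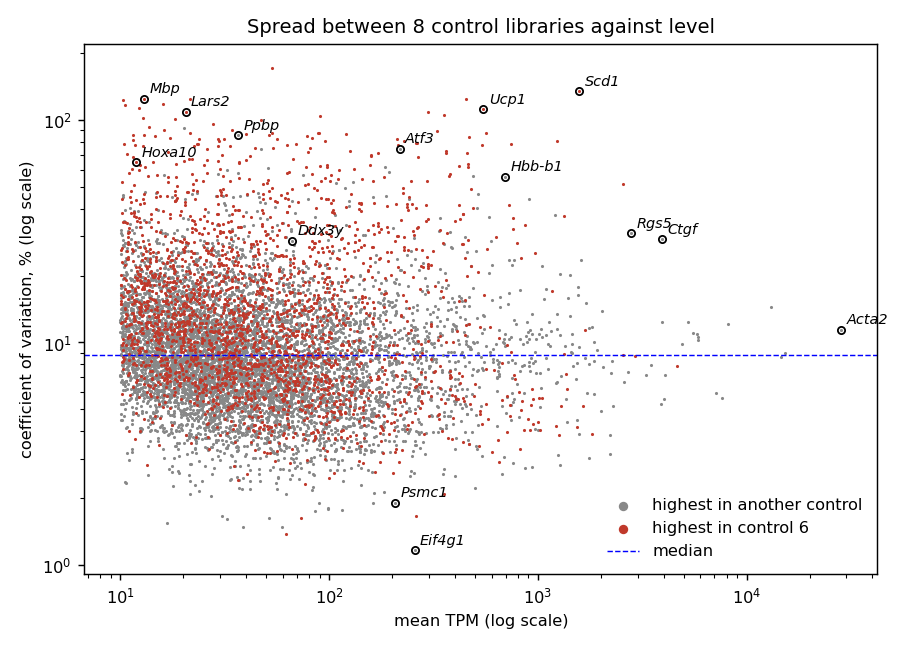
Coefficient of variation (log scale) against mean TPM (log scale) for 9155 genes at 10 TPM or more, red where control 6 was the highest library, with the median of 8.78% as a dashed line. Most points above 50% are red, and Eif4g1 lies at the bottom.

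Genes with a small CV are described by it alone. None was called less variable than the trend, by a test that did not call such genes in simulated counts either. Eif4g1, the scaffold of the translation initiation complex, had the lowest CV of the 9155 genes, 1.16%, with 258, 259, 259, 253, 254, 254, 262 and 257 TPM in controls 1 to 8. Glyr1, a chromatin reader, followed at 1.37%, Gnl2, a nucleolar GTPase, at 1.4708%, Phf10, of a chromatin remodelling complex, at 1.482% and Zdhhc3, a palmitoyl transferase, at 1.53%. Among the lists, the median CV of the genes tested was 4.64% for the proteasome (36 genes), 5.08% for cytosolic ribosomal proteins (85), 5.77% for vacuolar sorting and vesicle coats (51), 6.04% for translation initiation (57) and 6.13% for splicing factors (46), against 10.9% for all 13339. Of these lists, 65 of 85 ribosomal and 24 of 36 proteasome genes were highest in control 6, beside 25.7% of all genes tested. Of the 85 ribosomal genes, 20 had an unadjusted edgeR p under 0.05 for a spread below the trend, beside 4.27% of all genes. None of the 13339 genes passed after Benjamini-Hochberg adjustment, and no call rests on this count. Psmc1, an ATPase of the proteasome, varied by 1.90% around 206 TPM, and Eif3m, of translation initiation, by 1.76% around 115 TPM. Reads of ribosomal protein genes may be shared with near-identical copies elsewhere in the genome.

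Fat genes had the largest differences between libraries, and control 6 was highest for most. The 13 genes of white and general adipocytes summed to 4492, 7890.0, 4303, 2068, 3548, 12209.8, 5137 and 5711 TPM in controls 1 to 8, and 12 of the 13 were highest in control 6. Of all genes tested, 25.7% were highest there. The 11 brown adipocyte genes summed to 5547 TPM in control 6 and to 565 to 1798 TPM in the others, with 10 of 11 highest in control 6. Ucp1, which uncouples respiration to make heat, had 242, 328, 336, 109, 199.5, 2008, 603 and 555 TPM. Cidea, a lipid droplet protein of brown fat, was at 1396 TPM in control 6 and 163 to 499 TPM in the others, and Adipoq, the hormone adiponectin, at 1061 and 138 to 722 TPM. Control 2 was next for Adipoq, and control 4 was lowest for Ucp1, Cidea and Adipoq. The lipid synthesis genes followed, with 22 of the 23 tested highest in control 6, beside the same 25.7% of all genes. Scd1 had 909, 1272, 744, 324, 431, 6791, 1108 and 1042 TPM and Fasn, the fatty acid synthase, 166, 288, 174, 78.0, 98.8, 1075, 308 and 193 TPM. Without control 6, the CV of Scd1 was 42.3% and that of Fasn 46.5%. Plin4, a lipid droplet coat protein in the same adipocyte list, was even, at 524 ± 33.2 TPM with a CV of 6.33%.

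Nuclear genes of oxidative phosphorylation, the mitochondrial chain that makes ATP, also set control 6 apart. Of the 79 tested, 78 were highest there, beside 25.7% of all genes tested. The list summed to 36620.4 TPM in control 6 against 16294 to 20646 TPM in the others. The median CV of the genes tested was 28.7%, and 9.56% without control 6. Atp5a1, a subunit of ATP synthase, had 1328 TPM in control 6 and 662 to 773 TPM in the others. Gpx3, the plasma glutathione peroxidase, had 1703 TPM in control 6 and 181 to 813 TPM in the others. Control 6 was at the low end for matrix and fibroblast genes, with 7411 TPM for the fibroblast sum against 7667 to 10568 TPM. The part of the fat content in the other differences of control 6 was not tested.

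Nerve genes had the same library at the top. The 14 Schwann cell genes, which mark the glia of peripheral nerves, summed to 129, 139, 89.0, 101, 136, 587, 209 and 161 TPM, and all 11 tested were highest in control 6. Of all genes tested, 25.7% were highest there. Mbp had 6.23, 6.73, 2.88, 4.62, 7.35, 52.1, 13.7 and 9.94 TPM, and Sox10, the transcription factor that defines these cells, 3.75, 4.25, 1.76, 2.40, 5.477, 25.3, 6.78 and 6.95 TPM. Control 6 was far the highest for both genes and control 3 the lowest. Genes of sympathetic neurons were high in controls 6 and 7. Th and Dbh, the enzymes that make noradrenaline, were at 32.3 and 52.7 TPM in control 6 and at 5.50 and 9.33 TPM in control 7, and no other library exceeded 0.697 TPM for Th or 0.952 TPM for Dbh. Tubb3, a neuronal tubulin, had 1.25, 1.52, 0.864, 3.14, 3.62, 53.7, 9.44 and 1.42 TPM and Prph, the intermediate filament of peripheral neurons, 0.805, 1.24, 0.808, 1.92, 1.51, 37.8, 7.49 and 1.06 TPM. Control 6 was highest and control 7 next for these 4 genes. Uchl1, a neuronal enzyme in the same list, was at 129 to 186 TPM in the libraries other than control 6 and at 188 TPM there, so its highest value lay close to the next.

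Early response genes divided the libraries in another way. These genes are switched on within minutes by injury, stretch or serum. Of 25 genes tested, 10 had controls 1 to 4 all above controls 5 to 8, against 9.02% of all genes, and 0 had the reverse. This split was picked after values were seen, so this count and the heat shock count below may partly restate it. Atf3, a stress-induced transcription factor, had 237, 536, 283, 319, 86.2, 67.3, 131 and 79.0 TPM, with all of controls 1 to 4 above 236 TPM and all of controls 5 to 8 at 131 TPM or less. Nr4a1, an orphan nuclear receptor, had 189, 436, 229, 204, 116, 116, 87.0 and 106 TPM, Jun 239, 353, 213, 213, 111, 115, 138 and 111 TPM and Fosb 48.5, 54.8, 37.1, 35.5, 19.9, 10.6, 16.8 and 12.1 TPM. Control 2 was the highest for each of these 4 genes. Fos did not divide the libraries in that way, with 168, 88.8, 58.0, 66.6, 83.8, 61.0, 33.3 and 37.5 TPM and control 1 highest. Cyr61 and Ctgf, secreted proteins that respond to stretch, were at 842 to 1617 and 4384 to 5546 TPM in controls 1 to 4 and at 389 to 772 and 2298 to 3253 TPM in controls 5 to 8, without overlap.

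Heat shock genes divided in the same way in 6 of 18, against 9.02% of all genes. Hspa1b was at 705 to 826 TPM in controls 1 to 4 and 354 to 429 TPM in controls 5 to 8, and Hspa1a, a near-identical copy with which it may share reads, at 428 to 477 and 209.9 to 235 TPM. Dnajb1, a co-chaperone, was at 155 to 191 and 67.8 to 95.6 TPM. The constitutive Hspa8, with a CV of 9.25%, was at 1760.2 to 2136 TPM in controls 1 to 4 and 1639 to 2046 TPM in controls 5 to 8. The split of controls 1 to 4 from controls 5 to 8 was picked from values such as those of Ddx3y, a Y-linked RNA helicase gene. Ddx3y had 84.5, 86.1, 82.1, 83.9, 45.9, 44.2, 49.9 and 56.2 TPM, so it is no further case of the split. Of the 4 Y-linked genes tested Uty also divided the libraries, by less, at 6.77 to 7.88 TPM in controls 1 to 4 and 5.45 to 6.72 TPM in controls 5 to 8. Eif2s3y was at 81.5 to 89.5 and 71.6 to 87.9 TPM and Kdm5d at 4.84 to 6.08 and 4.15 to 5.13 TPM, which overlap. In the other direction, Lars2, the mitochondrial leucyl-tRNA synthetase, was at 4.26 to 4.85 TPM in controls 1 to 4 and at 35.1, 64.8, 10.6 and 35.6 TPM in controls 5 to 8, the highest CV without control 6 of the 9155 genes (103%). Hoxa2 and Hoxa3 were lower in controls 1 to 4, at 16.9 to 19.05 and 20.3 to 21.1 TPM against 26.1 to 31.8 and 26.8 to 34.9 TPM. The libraries' GC slope, in log2 CPM per unit of GC fraction, was -1.10 to -0.22 in controls 1 to 4 and 0.85, 1.06, 0.88 and -0.19 in controls 5 to 8. The part of this slope in the division was not tested beyond the fit with GC offsets, in which the common biological coefficient of variation was 0.155.

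**Figure D4:**
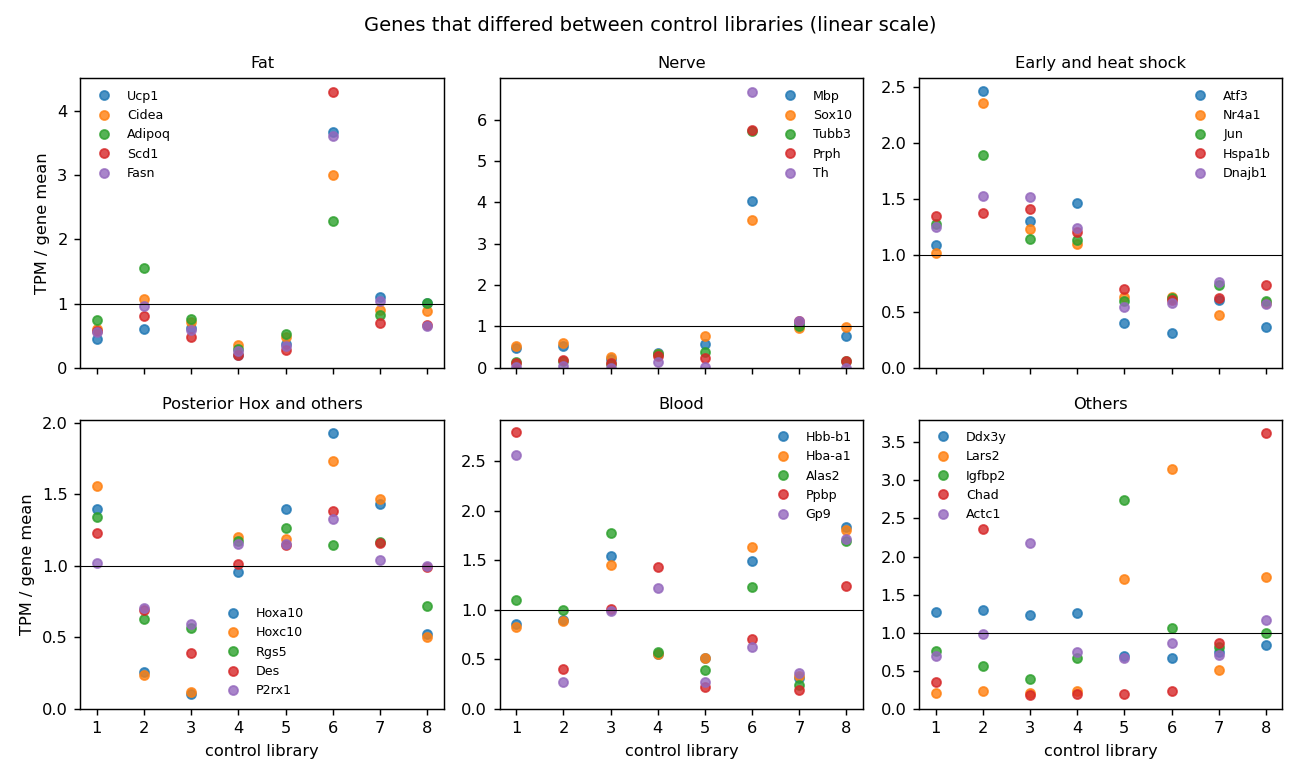
TPM of 30 genes in 6 groups, divided by the mean of each gene over 8 libraries (linear scale), with 1 colour per gene. Fat and nerve genes peak in control 6, early and heat shock genes lie higher in controls 1 to 4, and the posterior Hox genes, Rgs5, Des and P2rx1 lie lower in controls 2 and 3.

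Hox genes hold the memory of position along the body axis, with higher paralogue numbers toward the tail. Of 38 Hox genes with a length 26 reached 1 TPM, and the sum over genes was largest for paralogue group 6. Group 6 had 109, 94.6, 97.5, 97.7, 121, 108, 117 and 103 TPM in controls 1 to 8, and group 10 had 36.6, 5.98, 2.87, 27.0, 31.8, 45.1, 36.1 and 13.01 TPM. The genes of groups 1 to 7 ranged from a CV of 3.50% to 39.4%. Hoxb7 had a CV of 3.50%, at 30.9 ± 1.08 TPM, Hoxb4 and Hoxb6 were at 50.9 ± 5.81 and 50.3 ± 6.01 TPM, and the 16 tested genes of groups 1 to 7 had a median CV of 13.3%, against 10.9% for all genes tested. The 3 tested genes of group 8 had a median CV of 32.6%, and the 5 tested genes of groups 9 to 13 one of 52.9%. Hoxa10 had 16.6, 3.10, 1.26, 11.4, 16.7, 23.04, 17.1 and 6.22 TPM and Hoxc10, of another cluster on another chromosome, 19.3, 2.88, 1.41, 14.9, 14.7, 21.4, 18.1 and 6.20 TPM. Controls 2, 3 and 8 were the lowest 3 for both genes, with no overlap with the other 5. This set of 3 libraries was picked from the values of these genes, so the counts that follow partly restate it. The lowest 3 libraries were the same in 4 of the 5 tested genes of groups 9 to 13 and in 2 of 16 of groups 1 to 7, against 199 of the 13339 genes tested (1.49%). Hoxd8 was at 1.44 to 7.92 TPM in these 3 libraries and 11.01 to 16.6 TPM in the other 5, and Hoxa9 at 2.26 to 5.42 and 6.82 to 12.9 TPM. Hoxb9 was the tested gene of groups 9 to 13 with the smallest CV, 12.7%, at 5.98 ± 0.762 TPM. The CV of Hoxa10 without control 6, its highest library, was 65.8%.

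**Figure D5:**
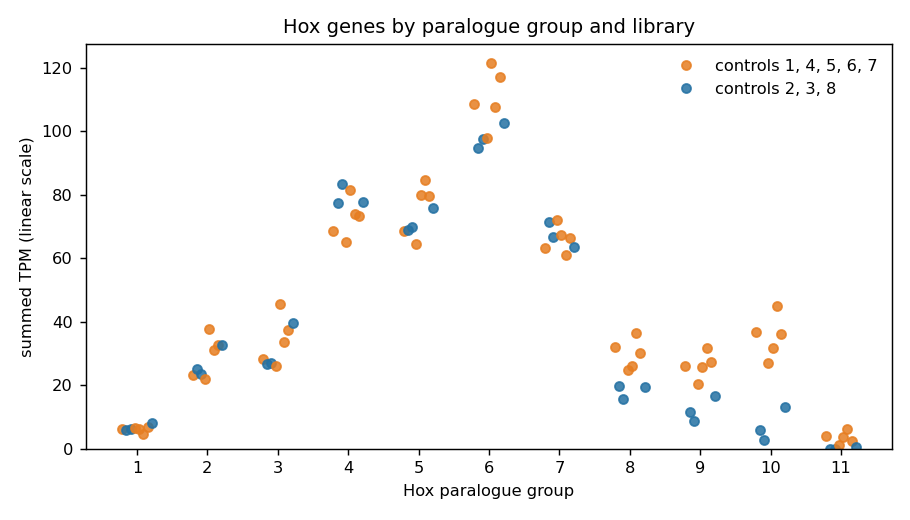
Summed TPM (linear scale) of Hox genes by paralogue group, with 1 point per library. In groups 8 to 11 controls 2, 3 and 8 (blue) lie below the other 5 controls (orange), and in groups 4 to 7 the 2 sets overlap.

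Other genes with the same lowest 3 libraries were looked for after this pattern was seen. At a mean of at least 10 TPM, those with the largest ratio after Hoxc10, Hoxa10 and Hoxd8 were Agtr1b, an angiotensin receptor whose near-copy Agtr1a may share reads, Kit, a receptor tyrosine kinase, and Rgs5. Agtr1b was at 2.84 to 8.480 TPM in controls 2, 3 and 8 and 10.96 to 17.2 TPM in the other 5, and Kit at 5.76 to 7.67 and 11.5 to 17.7 TPM. Rgs5 had 3769, 1764, 1589, 3289, 3538, 3206, 3276 and 2006 TPM, so that the most abundant gene of contraction control followed the libraries that were low for Hoxa10. Des was at 98.0 to 249 TPM in controls 2, 3 and 8 and 255 to 347 TPM in the other 5, and P2rx1 at 93.9 to 157 and 161 to 209 TPM. Avpr1a, a vasopressin receptor, was at 7.75 to 13.98 and 15.3 to 25.2 TPM. Acta2 did not divide in this way, with 26252 to 30525 TPM in these 3 libraries and 25009.5 to 35028 TPM in the others. S1pr3, a receptor for sphingosine phosphate, was also lowest in control 3, at 2.49 TPM against up to 50.1 TPM.

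Blood, heart and cartilage genes had other orders of the libraries. Haemoglobin genes moved together, with Hbb-b1 at 595, 624, 1079, 385, 359, 1038, 217 and 1280.5 TPM and Hba-a1 at 403, 434, 711, 272, 249, 797, 161 and 884 TPM, and their near-identical copies may share reads. Alas2, the heme synthesis enzyme of red cells, had 17.6, 16.04, 28.7, 9.22, 6.36, 19.8, 3.93 and 27.3 TPM, with controls 3 and 8 highest and 7 lowest, as for Hbb-b1. Its exons overlap those of Apex2. Platelet genes had another order, since Ppbp, a platelet chemokine, had 102, 14.8, 36.6, 52.4, 8.21, 25.7, 7.08 and 45.4 TPM and Gp9, a platelet receptor, was at 23.1 TPM in control 1, the highest for both. Genes of heart muscle were highest in control 3. Actc1, cardiac actin, was at 21.5 TPM there and at most 11.6 TPM in the others, Myl7, a myosin light chain of the atrium, at 29.8 and at most 8.41 TPM, and Tnni3, cardiac troponin I, at 12.4 and at most 6.997 TPM. Nppa and Myl2, of atrium and ventricle, were at 0.232 ± 0.205 and 0.0456 ± 0.0688 TPM. Chad, a cartilage matrix protein, was at 29.5 TPM in control 8, 19.1 in control 2, 7.001 in control 7 and at most 2.88 TPM in the other 5. The other cartilage genes above 10 TPM were more even, Cytl1 at 503 ± 129.9, Comp at 97.9 ± 21.2 and Acan at 29.2 ± 8.43 TPM. Genes of antigen presentation were highest in control 5, with Cd74 at 349.5 TPM there and at most 225 TPM in the others, and H2-Eb1, of MHC class II, at 108 and at most 82.2 TPM. Igfbp2, a binding protein for insulin-like growth factors, was at 130.2 TPM in control 5 and at most 50.3 TPM in the others.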

How the data were processed

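The 8 control libraries were read from the authors' deposited table of 25941 genes by 24 samples, whose unit is counts, as whole numbers per gene. Libraries were polyA-selected TruSeq libraries amplified over 13 PCR cycles, per the labels' protocols. CASAVA 1.8.2, STAR 2.5.1b and mm9 are named, per the submitters' processing notes. The counting tool, the annotation and the step that brought the totals to within 0.0734% of each other were not given in the sources used here. Totals were 21656610 to 21672499 per library, so counting error was small beside the spread of abundant genes, and these totals may not show the depth of sequencing. No label names the animal of a library, so p-values measure only the spread between these samples, which may be technical.

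TPM was computed from counts scaled by TMM (edgeR 4.0.16), divided by the union of exons in GENCODE M21 for 24179 genes (93.2%), and rescaled to a mean sum of 1000000. The 13339 genes that passed filterByExpr (minimum count 10) were fitted with edgeR's quasi-likelihood model with an intercept only. Each gene's dispersion was tested against the trend in both directions with Benjamini-Hochberg adjustment at 0.05. The script was tested on simulated data. Principal components used log2 CPM with a prior count of 2. DESeq2 1.42.0, limma 3.58.1, other scalings, no filter, offsets for GC content, each library left out and the longest transcript as length were the alternatives. R 4.3.3 and Python 3.11.15 were used. CArG boxes were counted in RefSeq promoters.

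The members and gene lists were chosen with earlier results of these data known. Named genes were the 40 with the highest mean TPM, the 20 with the lowest F at 10 TPM or more, up to 10 of the highest of each list, all Hox, clock and sex-linked genes, and the 10 genes with the largest loadings in each direction on the first 3 components. Genes called more variable would also have been named, and there were none. Of the 234 genes with values, 23 lie outside this rule and were chosen after their values were seen: Adra1a, Adra1b, Agtr1a, Agtr1b, Avpr1a, Des, Dnajb1, Ednra, Ednrb, Fos, Kcnma1, Lox, Mki67, Mrc1, Myl2, Myocd, Nos3, Orai1, Pdgfra, Ptgir, Rergl, Stim1 and Top2a. Some genes are not reported here.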

Additional observations from a re-analysis of the deposited data

Results flagged for a closer look

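For each gene level named in the text and each list sum, the gap between the library at one end and its nearest neighbour was set against the whole range of the 8 libraries. Of 297 levels and sums, 46 had a gap above Dixon's 95% limit for 8 values, which chance alone would pass in about 1 in 20 groups. Values are TPM, followed by the range of the other 7 libraries. Control 6 stood apart at the high end in 24 of them and at the low end in 7. The other 15 lay in other controls. Over all 13339 genes tested, 1691 (12.7%) passed this limit at either end in any control. In controls other than control 6, 1.99% passed high and 0.847% low. Control 6 lay past the limit high in 9.06% and low in 0.787% of all genes tested. The list sums it set apart at the high end were those of the brown adipocyte genes (5547 TPM against 565 to 1798), Schwann cell genes (587 TPM against 89.0 to 209), neuron genes (374 TPM against 132 to 199) and nitric oxide and redox enzymes (8036 TPM against 5254 to 6058). Further list sums high in control 6 were those of the lipid synthesis genes (14436 TPM against 1545 to 4141), nuclear oxidative phosphorylation genes (36620.4 TPM against 16294 to 20646) and proteasome genes (4822 TPM against 4256 to 4469.9). Genes high in control 6 alone were Adra1a (9.10 TPM against 1.79 to 3.485), Agtr1a (6.999 TPM against 1.803 to 3.97), Arntl (1.84 TPM against 0.341 to 0.782) and Atp5a1 (1328 TPM against 662 to 773). Control 6 also stood above the rest for Cidea (1396 TPM against 163 to 499), Dbh (52.7 TPM against 0 to 9.33), Fasn (1075 TPM against 78.0 to 308) and Gpx3 (1703 TPM against 181 to 813). The same library was far above the others for Kcnk3 (85.5 TPM against 10.2 to 38.1), Mbp (52.1 TPM against 2.88 to 13.7), Prph (37.8 TPM against 0.805 to 7.49) and Scd1 (6791 TPM against 324 to 1272). A gap of this kind was also found in control 6 for Sox10 (25.3 TPM against 1.76 to 6.95), Th (32.3 TPM against 0 to 5.50), Tubb3 (53.7 TPM against 0.864 to 9.44) and Ucp1 (2008 TPM against 109 to 603). Control 6 had the highest level, well apart, for Upk3b (1.71 TPM against 0 to 0.200).

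At the low end, control 6 stood apart for growth factor and Notch receptors (3367 TPM against 3666 to 3928), chloride channels (509 TPM against 581 to 629.7), integrins (4525 TPM against 5526 to 6347) and circadian clock genes (1624 TPM against 1952 to 2194). It was also lowest, and apart, for Clcn4-2 (48.7 TPM against 52.6 to 54.4), F2r (77.2 TPM against 103 to 112) and Pecam1 (120.2 TPM against 175 to 213). Control 1 stood above the rest for platelet genes (252 TPM against 66.6 to 153) and Fos (168 TPM against 33.3 to 88.8). Control 2 stood above the rest for nuclear receptors (2023 TPM against 1575 to 1782), Fam38a (24.4 TPM against 16.5 to 19.1), Malat1 (461 TPM against 249 to 343) and Nr4a1 (436 TPM against 87.0 to 229). Control 3 stood above the rest for cardiac muscle genes (102 TPM against 28.5 to 47.9), Actc1 (21.5 TPM against 6.59 to 11.6), Mcpt4 (16.8 TPM against 4.01 to 9.81) and Myl7 (29.8 TPM against 0 to 8.41). Also high in control 3 was Tnni3 (12.4 TPM against 4.998 to 6.997). Control 5 stood above the rest for Adra1b (5.15 TPM against 3.24 to 3.79), Cd74 (349.5 TPM against 138 to 225) and Igfbp2 (130.2 TPM against 18.4 to 50.3). Control 7 stood above the rest for Sftpc (0.172 TPM and 0 in the other 7). With 7 libraries at 0 the gap equals the whole range, so any count in control 7 would pass the limit.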

How the results depend on the processing

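The counts of genes more and less variable than the trend were 0 under DESeq2 size factors, library totals without scaling, offsets for GC content, limma's variance of log2 CPM and each library left out (lowest 0, highest 0). Without a filter 239 genes were more variable, and DESeq2 marked 210 dispersion outliers, 192 of them in both sets. The chi-square test against counting error, chosen after seeing the data, called 10389. The common biological coefficient of variation, 0.160 with all libraries, was 0.118 to 0.169 with 1 library left out, the lowest without control 6, and 0.155 to 0.175 under the other settings. Control 6 also carried the first component, and the 3 following values were taken after seeing the data. Without it component 1 held 28.8% of the variance and component 3 held 13.2%, and 34 genes had a CV over 50%. Within controls 5, 7 and 8 the median CV was 5.64%, a value that also tends to be smaller with fewer libraries.

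Genes at 1 TPM or more numbered 13401 to 13491 with 1 library left out, 13268 with the longest transcript as length, and 14555 or 10767 at a limit of 0.5 or 5 TPM. The longest transcript moved 109 of 234 gene levels and 27 of 63 list sums by more than their SD, and 15 genes by over 1.5 times. Of those not given with their second value above, Adra1a was at 5.57 TPM with that length, Hoxa3 at 44.8, Lars2 at 44.1, Glyr1 at 98.8, Tnni3 at 11.5, Ms4a1 at 0.345 and Myl2 at 0.0754 TPM. The length changes no single gene's ratio between libraries. TPM without scaling moved no named level or list sum by more than its SD. Without control 6 the mean fell by over 1.5 times for the lipid synthesis sum, to 2874 TPM, and for Scd1 (833), Ucp1 (339), Fasn (186), Mbp (7.35), Sox10 (4.482), Th (0.929), Dbh (1.498), Tubb3 (3.04), Prph (2.12), Upk3b (0.0724) and Myl2 (0.0262). The same held without control 3 for Myl7 (4.17) and Saa3 (0.156), without control 8 for Chad (5.07), and without control 7 for Sftpc, at 0 in the others. No paired analysis was possible because all 8 libraries belong to 1 group. Levels under 1 TPM rest on few counts, and with nearly equal totals the depth of each library is not known from the table.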

Other observations

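Of 22 adhesion and chemokine genes 17 reached 1 TPM, beside 55.7% of all genes, led by Cxcl12, a chemokine that holds progenitor cells, at 101 ± 11.6 TPM, Csf1, the growth factor of macrophages, at 92.6 ± 10.6 TPM and the alarmin Il33 at 46.0 ± 9.35 TPM. Vcam1 and Icam1, which catch leukocytes on activated endothelium, were at 31.6 ± 6.22 and 15.4 ± 2.34 TPM, and Vcam1 was at 51.6 TPM with the longest transcript as length. The acute phase genes Saa3 and Lcn2 were at 0.240 ± 0.285 and 1.66 ± 0.776 TPM. Hp, haptoglobin, which fat cells also make, was at 518 ± 240.1 TPM, with 409, 892, 479.9, 187, 313, 832, 532 and 499 TPM in controls 1 to 8. Controls 2 and 6 were highest and control 4 lowest, as for the adipocyte sum. Interferon response genes were led by Ifi27l2a at 334 ± 107 TPM and Bst2, which tethers viruses, at 104 ± 19.2 TPM, and Ifit1, which binds viral RNA, had 4.85, 4.21, 5.13, 10.1, 12.3, 11.2, 5.43 and 6.66 TPM with controls 4, 5 and 6 highest.

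The matrix held further abundant secreted proteins. Ogn, the proteoglycan osteoglycin, was at 1703 ± 255 TPM, Fn1, fibronectin, at 1609 ± 377, Sparcl1, a relative of Sparc, at 1269.7 ± 259 and Postn, periostin, at 1134 ± 141 TPM. Among imprinted genes, expressed from 1 parental copy, Impact at 50.3 ± 5.04, the cell cycle inhibitor Cdkn1c at 49.9 ± 5.61 and Igf2r, the receptor that clears Igf2, at 48.0 ± 2.80 TPM lay close to Meg3. Igf2 itself, the fetal growth factor, had 26.5, 42.2, 17.6, 26.6, 26.7, 26.1, 37.0 and 31.2 TPM, with control 2 highest and control 3 lowest. Mesothelial genes were near 0 apart from Krt18, a keratin also found in other cells, at 18.7 ± 4.14 TPM, and Upk3b, which marks mesothelium, had 1.71 TPM in control 6 and 0 to 0.200 TPM in the others.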
